A study of Mus musculus with 6 samples.

Results

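The genes described here make, degrade and read the second messenger cyclic AMP (cAMP) in IngWAT (inguinal white adipose tissue), the fat under the skin of the groin. They were chosen by gene symbol, under a rule set with earlier results of these data known. It takes every gene whose name begins with Adcy, Pde or Akap followed by a digit, or with Prkac or Prkar. Pakap, a gene that overlaps Akap2 on the same strand, was added. The rule found 60 of the 34745 genes in the deposited tables. They were 9 transmembrane adenylyl cyclases and the soluble cyclase, 23 cyclic nucleotide phosphodiesterases, 3 genes with a phosphodiesterase name that are not cyclic nucleotide phosphodiesterases, 2 catalytic and 4 regulatory subunits of protein kinase A (PKA), 17 A-kinase anchoring proteins (AKAPs) and 1 pseudogene of a catalytic subunit.

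RNA-seq was performed on IngWAT from 3 WT mice and 3 SAKI mice, labelled as separate animals. SAKI mice carry an LSL-Slc35d3 transgene that stays silent until Cre removes a stop cassette, and adiponectin-Cre limits that step to adipocytes. The WT mice carried the Slc35d3 alleles without Cre. All 6 were males on the C57BL/6 background kept on NCD (10 kcal% fat), which began at 6 weeks of age and lasted 10 weeks, so that they were 16 weeks old at the end, and perfusion with PBS is recorded for the samples.

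Transmembrane adenylyl cyclases form cAMP when a receptor such as the beta-adrenergic receptor activates the stimulatory G protein, and phosphodiesterases break it down. cAMP binds the regulatory subunits of PKA and frees the catalytic subunits, while AKAPs hold the kinase near its substrates. In adipocytes this route drives lipolysis, and in beige and brown adipocytes it drives the thermogenic program.

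The libraries held 15354161 to 18787036 counts. Slc35d3 was at 73.3 to 82.1 CPM (counts relative to library size, scaled with TMM factors) in WT mice and at 745 to 793 CPM in SAKI mice, so each library matched its label. WT 2 stood apart from its group. The chi-square statistic of its gene counts per degree of freedom was 92.1 against WT 1 and 87.2 against WT 3, but 24.4 to 34.2 against the SAKI libraries, and its mitochondrial share of counts was 13.8%, with 7.31% in WT 1, 8.78% in WT 3 and 13.1% to 15.9% in SAKI mice. Among the 50 members that passed the filter on low counts, WT 2 alone lay nearest to the SAKI range for 20, WT 1 alone for 12 and WT 3 alone for 7. The proportions were similar over all 15400 genes tested, at 6339, 3609 and 2208. Results are therefore given with and without WT 2. WT 2 was singled out in these same data by its nearness to the SAKI libraries, so leaving it out favours calls. Over all genes, the share at an adjusted p under 0.05 in edgeR's quasi-likelihood test rose from 0.0195% to 7.41% higher. For lower genes it rose from 0.013% to 9.14%. Values without WT 2 are thus not separate support. Markers of mature adipocytes were all detected and summed to 26501 to 37279 CPM in WT mice and 25323 to 28543 CPM in SAKI mice. In whole tissue, fewer cells of a type and less RNA per cell cannot be told apart.

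The other 10 members had too few counts to test. Akap4, Pde6b and Pde6c had no count in any library, which allows up to 0.0309 CPM over the 6 libraries (3 counts of the total, counting error only). Akap3, Akap14, Adcy8, Pde6a, Pde6g, Pde6h and the pseudogene Prkaca-ps1 had at most 16 counts over all libraries. Most of these are known from testis, retina or brain.

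Of the 50 tested members, 1 fell in SAKI mice (Akap2) and 0 rose at an adjusted p under 0.05 in edgeR's quasi-likelihood test with Benjamini-Hochberg adjustment over 15400 genes. The same test called 0.0195% of all genes higher and 0.013% lower. The call of Akap2 is for its row read alone. Summed with Pakap, which overlaps it, the pair missed the threshold (adjusted p 0.148 from edgeR). At an unadjusted p under 0.05, 2 members were higher (Adcy7 and Akap9) and 6 were lower (Akap2, Adcy4, Adcy5, Adcy6, Prkar1b and Prkar2b), which is 4% and 12% of the members, beside 8.36% and 9.99% of all genes. In 6 members (Adcy7, Prkacb, Akap8, Akap9, Akap10 and Akap13) every SAKI mouse lay above every WT mouse and in 5 (Akap2, Adcy4, Adcy5, Adcy6 and Prkar1b) every SAKI mouse lay below, beside 13% and 12.4% of all genes. These shares of 12% and 10% were near those of all genes. By FPKM, where library totals are scaled without TMM factors, Akap11 also lay above and Prkaca, Prkar2b and Pde11a also lay below without overlap.

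The median log2 fold change of the tested members was -0.03, with 24 above 0 and 26 below, and that of all genes was -0.0035. DESeq2 called 1 member higher (Adcy7) and 4 lower (Akap2, Adcy4, Adcy5 and Adcy6), beside 2.01% and 2.69% of all genes. Without WT 2, edgeR called 4 members higher and 7 lower, beside 7.41% and 9.14% of 15693 genes. The higher members were then Adcy1, Adcy7, Akap9 and Pde5a, and the lower ones were Adcy4, Adcy5, Adcy6, Akap2, Pakap, Prkar1b and Prkar2a. As the plot of all tested members by role shows, the spread was widest among the AKAPs and the cyclases and narrow among the phosphodiesterases.

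**Figure D1:**
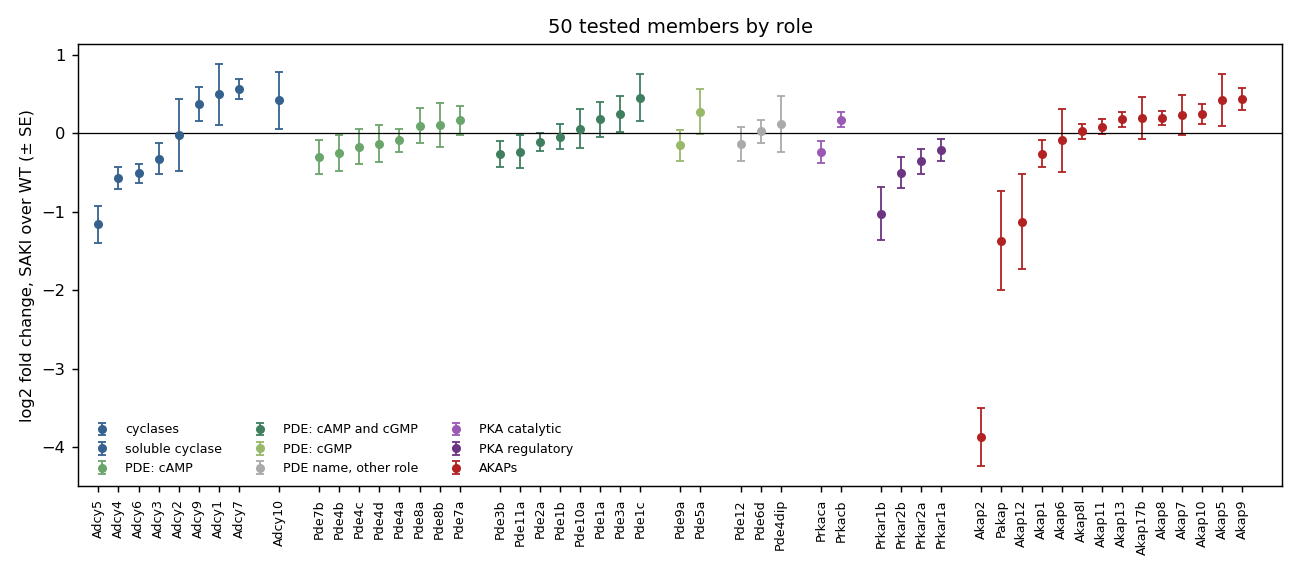
Log2 fold change of SAKI over WT mice for the 50 tested members, ordered within each role, with the SE of edgeR's quasi-likelihood fit as bars (3 mice per group). Akap2 lies at -3.87, and the phosphodiesterases that act on cAMP, cGMP or both lie between -0.30 and 0.45.

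The cyclases were led by Adcy6, an isoform that calcium and the inhibitory G protein restrain, as they do its close relative Adcy5. Per length, in FPKM over the 6 mice, the order was Adcy6 at 39.7 ± 8.89 (SD, n = 6), Adcy5 at 23.0 ± 11.6, Adcy7 at 20.2 ± 5.03, Adcy4 at 11.5 ± 2.76, Adcy3 at 4.01 ± 0.75 and Adcy9 at 1.99 ± 0.44. Adcy2 and Adcy1 were under 1 FPKM in every mouse. Adcy6 lay above Adcy5 in 6 of 6 mice, Adcy5 above Adcy7 in 3 of 6 (the WT mice), Adcy7 above Adcy4 in 5 of 6, and each cyclase from Adcy4 on lay above the next in 6 of 6. The soluble cyclase Adcy10, which bicarbonate activates, was at 0.67 to 1.60 CPM.

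Adcy5 was at 258 CPM in WT 1, 142 CPM in WT 2 and 269 CPM in WT 3, and at 99.7, 95.3 and 104 CPM in SAKI 1, 2 and 3. All SAKI mice lay below all WT mice, and WT 2 lay nearest to them. The log2 fold change was -1.16 (SE 0.24) with an adjusted p of 0.155 from edgeR, which missed the threshold. It was -1.40 with an adjusted p of 0.00176 from edgeR without WT 2, and the adjusted p from DESeq2 with all mice was 0.000522.

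Adcy6 was at 317, 252 and 273 CPM in WT 1, 2 and 3, and at 206, 189 and 195 CPM in SAKI 1, 2 and 3, again without overlap (log2 fold change -0.51, SE 0.12, adjusted p 0.166 from edgeR). Adcy4, a cyclase that G protein beta-gamma subunits can stimulate, was at 54.1, 43.4 and 58.9 CPM in WT mice and at 37.2, 33.8 and 34.4 CPM in SAKI mice, likewise without overlap (log2 fold change -0.57, SE 0.14, adjusted p 0.166 from edgeR). DESeq2 gave adjusted p-values of 0.00651 for Adcy6 and 0.0208 for Adcy4. Without WT 2, edgeR gave 0.0189 and 0.0113.

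Adcy7, a relative of Adcy4 that is prominent in blood and immune cells, had an estimate of the opposite sign. It was at 114, 99.3 and 96.5 CPM in WT 1, 2 and 3, and at 133, 160 and 163 CPM in SAKI 1, 2 and 3. The SAKI mice lay above all WT mice. The log2 fold change was 0.56 (SE 0.13) and the adjusted p from edgeR was 0.163. The adjusted p was 0.0123 from DESeq2 and 0.0432 from edgeR without WT 2.

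Of the other cyclases, none separated the groups. Adcy3, also the cyclase of olfactory cilia, had a log2 fold change of -0.32, Adcy9, the form least sensitive to forskolin, of 0.37, Adcy2 of -0.03 and the soluble Adcy10 of 0.42, with adjusted p-values of 0.388 or more from edgeR. Adcy1, a calmodulin-activated cyclase, was at 1.84 and 1.90 CPM in WT 1 and WT 3 but at 4.34 CPM in WT 2, above every SAKI mouse at 3.10 to 4.24 CPM. Its adjusted p from edgeR was 0.512 with all mice and 0.0473 without WT 2.

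**Figure D2:**
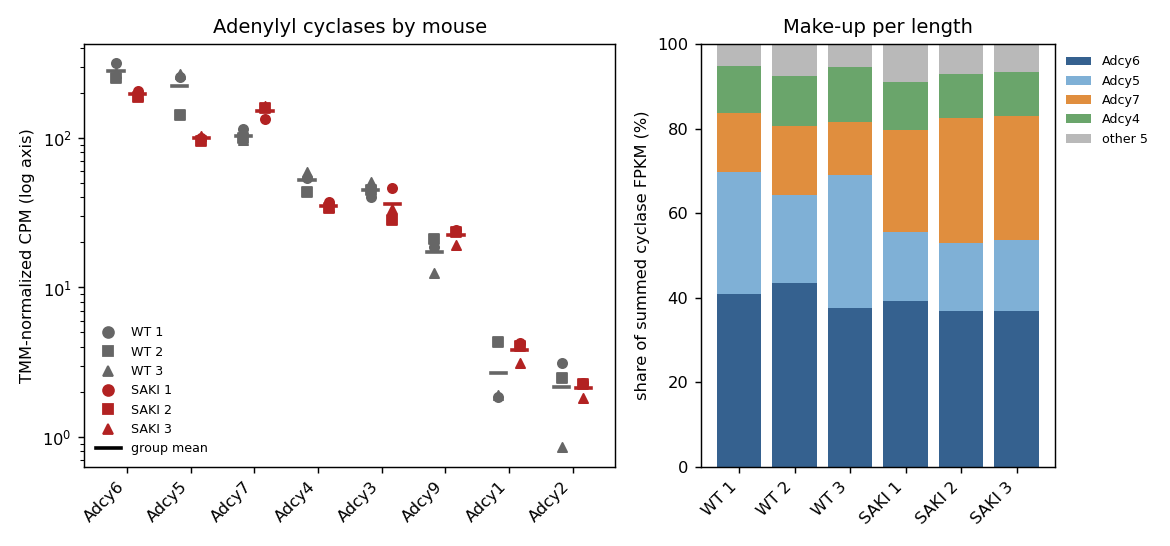
Left, TMM-normalized CPM (log axis) of 8 transmembrane adenylyl cyclases in each WT (grey) and SAKI (red) mouse, with lines at group means; right, share of each cyclase in the summed cyclase FPKM of each mouse. The share of Adcy7 was 12.6% to 16.2% in WT mice and 24.1% to 29.6% in SAKI mice.

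The make-up of the cyclases per length separated the groups. The summed FPKM of the transmembrane cyclases was 115 ± 20.4 in WT mice and 87.4 ± 2.77 in SAKI mice (SD, n = 3 each). Adcy5 supplied 27.1% ± 5.51 of the sum in WT mice and 16.4% ± 0.43 in SAKI mice, and Adcy7 supplied 14.3% ± 1.83 and 27.7% ± 3.11. Adcy6 supplied 40.6% ± 2.97 and 37.7% ± 1.40, and remained the leading cyclase of each mouse. The FPKM of Adcy5 exceeded that of Adcy7 in all 3 WT mice, by a ratio of 2.04 in WT 1, 1.29 in WT 2 and 2.51 in WT 3. It was below that of Adcy7 in all 3 SAKI mice, with ratios of 0.677, 0.539 and 0.573. This ratio was chosen after its values were seen, and the exact two-sided permutation test over mice gave p = 0.1, the smallest it allows with 3 against 3.

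Summed markers of other cell types differed between the groups without overlap in some lists and overlapped in others. The 12 macrophage markers summed to 1087 to 2429 CPM in WT mice and 2486 to 2986 CPM in SAKI mice (11 of 12 above 0 in log2 fold change), and the 10 T cell markers to 285 to 475 CPM and 554 to 640 CPM (10 of 10 above 0). WT 2 had the highest macrophage sum of the WT mice (2429 CPM) and the lowest T cell sum (285 CPM). Its Adcy7, at 99.3 CPM, lay between WT 1 and WT 3. Among WT mice, both Adcy7 and the T cell sum were highest in WT 1. The 12 endothelial markers summed to 1707 to 1987 CPM in WT mice and 1474 to 1590 CPM in SAKI mice (8 of 12 below 0), and the 12 markers of smooth muscle and pericytes to 1400 to 1649 CPM and 1001 to 1214 CPM (12 of 12 below 0). The 12 markers of fibroblasts and progenitors summed to 5907, 12353 and 4197 CPM in WT 1, 2 and 3 and to 11161 to 12549 CPM in SAKI mice (10 of 12 above 0), which set WT 2 with the SAKI mice. The 10 B cell markers summed to 556 to 974 CPM in WT mice and 858 to 988 CPM in SAKI mice (10 of 10 above 0), and the 8 markers of Schwann cells and nerve to 275 to 457 CPM and 458 to 574 CPM (6 of 8 above 0). No marker of these lists was at 0 in every library, and the part of these cells in the cyclase values was not tested.

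The phosphodiesterases were led by Pde3b, the form that insulin activates in adipocytes to lower cAMP. It was at 61.0 ± 8.14 FPKM (SD, n = 6), above Pde2a, which cGMP stimulates, at 33.8 ± 3.21 FPKM. Next came Pde8a, a cAMP-specific form of high affinity, at 13.1 ± 2.30 FPKM, and Pde1b, which calmodulin activates, at 10.5 ± 1.72 FPKM. Pde3b lay above Pde2a and Pde2a above Pde8a in 6 of 6 mice, and Pde8a above Pde1b in 5 of 6. Pde7a and Pde1a followed at 5.20 and 4.67 FPKM and were ordered alike in only 4 of 6 mice. Of the Pde4 family, the main cAMP-specific enzymes of immune cells, Pde4b was highest at 3.06 FPKM, with Pde4a at 1.48, Pde4d at 1.23 and Pde4c at 0.520 FPKM.

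None of the 18 tested cyclic nucleotide phosphodiesterases separated the groups by CPM or passed the test with all mice. The log2 fold changes of the 8 cAMP-specific enzymes ran from -0.30 (Pde7b) to 0.16 (Pde7a), with a median of -0.11. Those of the 8 enzymes that act on cAMP and cGMP ran from -0.26 (Pde3b) to 0.45 (Pde1c), with a median of 0.01. Pde3b was at 397, 555 and 545 CPM in WT 1, 2 and 3, and at 447, 422 and 377 CPM in SAKI 1, 2 and 3, so that WT 1 lay within the SAKI range (adjusted p 0.410 from edgeR). Pde2a was at 218, 208 and 184 CPM in WT mice and at 199, 183 and 182 CPM in SAKI mice, with overlap (log2 fold change -0.11, SE 0.11). Pde3b made up 44.9% ± 4.53 of the summed phosphodiesterase FPKM in WT mice and 41.2% ± 1.90 in SAKI mice, and that sum was 146 ± 6.97 and 136 ± 4.62 FPKM.

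With 3 WT mice, one holds the highest and another the lowest WT value in every gene. WT 1 was lowest in Pde3b and highest in Pde2a. WT 2 was highest in Pde3b and Pde5a and lowest in Pde4b and Pde7a. WT 3 was lowest in Pde2a and Pde5a and highest in Pde4b and Pde7a. Pde4b was at 60.7, 37.5 and 68.5 CPM in WT 1, 2 and 3, with 39.8 to 52.9 CPM in SAKI mice. Pde7a was at 64.7, 46.5 and 78.7 CPM in WT mice, with 66.8 to 75.5 CPM in SAKI mice. Pde5a, the cGMP-specific enzyme of vascular smooth muscle, was at 8.04, 14.7 and 7.33 CPM in WT mice, with 10.5 to 13.2 CPM in SAKI mice. Its log2 fold change was 0.27 (adjusted p 0.626 from edgeR), and without WT 2 the adjusted p was 0.0443. Pde9a, the other tested cGMP enzyme, differed by -0.16 on the log2 scale (adjusted p 0.700 from edgeR).

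The 3 genes that share the name but do not act on cyclic nucleotides also overlapped between the groups. Pde6d, a carrier of prenylated proteins, had a log2 fold change of 0.02, and Pde12, an enzyme that trims RNA in mitochondria, one of -0.14. Pde4dip (myomegalin), a centrosome and Golgi protein abundant in muscle, was at 166, 91.8 and 65.7 CPM in WT 1, 2 and 3, and at 154, 88.1 and 109 CPM in SAKI 1, 2 and 3. WT 1 and SAKI 1 were the highest. They were also the libraries with the highest sum of 10 skeletal muscle markers in their groups, 6046 and 2918 CPM, where WT 2, WT 3, SAKI 2 and SAKI 3 had 558, 897, 430 and 1856 CPM. The part of muscle RNA in Pde4dip was not tested.

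**Figure D3:**
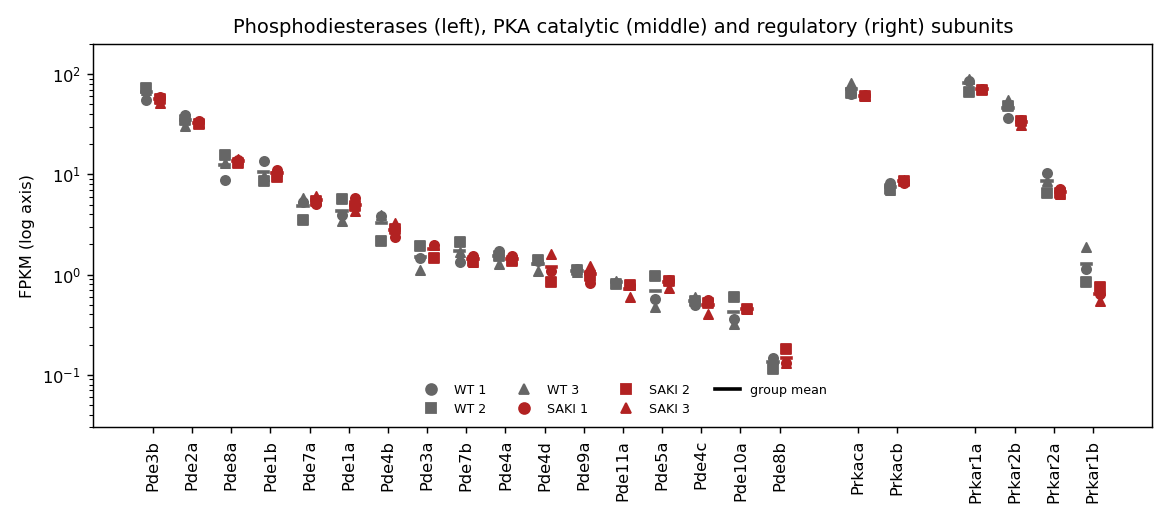
FPKM (log axis) of phosphodiesterases with a mean of at least 0.1 FPKM (left), PKA catalytic subunits (middle) and PKA regulatory subunits (right) in each WT (grey) and SAKI (red) mouse, with lines at group means. Prkar1a at 75.7, Prkaca at 65.8 and Pde3b at 61.0 FPKM lead their classes, and of the genes shown Prkaca, Prkacb, Prkar1b, Prkar2b and Pde11a lack overlap between the groups by FPKM.

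Among PKA subunits, all 4 regulatory subunits had log2 fold changes below 0, and the 2 catalytic subunits had opposite signs. Prkar1a, the widely expressed type I regulatory subunit, had the highest level of all members at 75.7 ± 9.63 FPKM (SD, n = 6), followed by the catalytic subunit Prkaca at 65.8 ± 8.31 FPKM. Prkar2b, the type II subunit typical of adipocytes, was at 40.0 ± 9.46 FPKM, and Prkar2a was at 7.62 ± 1.58 FPKM. In 6 of 6 mice the order was Prkar1a, Prkar2b, Prkar2a, Prkar1b.

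The log2 fold changes of the regulatory subunits were -0.22 for Prkar1a, -0.36 for Prkar2a, -0.50 for Prkar2b and -1.03 for Prkar1b, with a median of -0.43. Prkar1b, a subunit best known from neurons, was at 8.34, 6.74 and 15.4 CPM in WT 1, 2 and 3, and at 5.08, 5.76 and 4.14 CPM in SAKI mice. The groups did not overlap, but the gap between WT 2 and SAKI 2 was narrow (SE 0.33, adjusted p 0.210 from edgeR). Prkar2b was at 225, 322 and 379 CPM in WT mice and at 234, 222 and 198 CPM in SAKI mice, with WT 1 inside the SAKI range by CPM (SE 0.20, adjusted p 0.253 from edgeR). Prkar2a was at 74.1, 50.6 and 67.6 CPM in WT mice and at 54.6, 49.0 and 46.4 CPM in SAKI mice, with WT 2 inside the SAKI range. Without WT 2 the adjusted p from edgeR was 0.0384 for Prkar1b and 0.0296 for Prkar2a, and 0.183 for Prkar2b.

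Prkaca was at 140, 155 and 197 CPM in WT mice and at 144, 138 and 135 CPM in SAKI mice, with overlap by CPM (log2 fold change -0.24, SE 0.14). Prkacb, the second catalytic subunit, was at 120, 113 and 112 CPM in WT mice and at 129, 131 and 130 CPM in SAKI mice, without overlap but with a log2 fold change of only 0.17 (SE 0.09, adjusted p 0.345 from edgeR). Prkaca supplied 90.3% ± 1.80 of the catalytic FPKM in WT mice and 87.7% ± 0.42 in SAKI mice. The summed FPKM of regulatory subunits was 137 ± 17.3 in WT mice and 111 ± 2.61 in SAKI mice, and that of catalytic subunits 78.0 ± 9.70 and 69.5 ± 0.44 (SD, n = 3 each).

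Prkar1a was also the member whose promoter held the full cAMP response element, the palindrome TGACGTCA to which CREB binds. RefSeq start sites (GRCm38.p6) gave 95 windows of 300 bases for 48 of the 60 members, each with 250 bases before and 50 after the start. Both strands were searched for TGACGTCA and for its part TGACG, which lies inside the full element. TGACGTCA was in 2 of the 95 windows (2.11%), which overlap each other at Prkar1a, and in 1.79% of all 32851 windows. TGACG was in 20 of the 95 (21.1%) and in 20.8% of all windows. By gene it was in 17 of 48 members (35.4%) and in 23.0% of 27025 genes. Members had more windows per gene (95 for 48, beside 32851 for 27025), which raises their share by gene. The Prkar1a window is shown because it carries that element, in capitals, at chr11:109650699-109650998 on the plus strand (GRCm38.p6, from RefSeq), with the first capital 49 bases before the start site. A separate TGACG upstream of it is left in lower case.
Prkar1a promoter: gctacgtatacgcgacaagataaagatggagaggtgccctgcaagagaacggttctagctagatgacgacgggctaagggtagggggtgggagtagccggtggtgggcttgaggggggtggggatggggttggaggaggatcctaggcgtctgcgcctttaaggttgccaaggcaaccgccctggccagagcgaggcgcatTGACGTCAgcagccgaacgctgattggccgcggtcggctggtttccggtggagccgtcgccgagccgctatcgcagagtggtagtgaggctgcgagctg

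A match of letters is a description of the window, and no binding was measured here.

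Among the AKAPs, the nuclear anchors Akap8 and Akap8l had the highest levels, at 42.8 ± 4.21 and 34.8 ± 2.42 FPKM (SD, n = 6), with Akap8 above Akap8l in 6 of 6 mice. Akap12 (gravin), an anchor at the plasma membrane, was at 30.0 ± 26.6 FPKM. Akap13 was at 22.4 ± 2.01 FPKM, and Akap1, on the outer mitochondrial membrane, at 16.5 ± 2.53 FPKM. Akap2 was at 11.6 ± 12.7 FPKM and Pakap at 6.28 ± 5.29 FPKM. Akap2, Akap12 and Pakap had the largest spreads relative to their means among anchors above 1 FPKM. Akap11, Akap7, Akap10 and Akap9 were between 3.14 and 6.63 FPKM, and Akap17b, Akap6 and Akap5 under 1 FPKM.

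Akap2, an anchor linked to the actin cytoskeleton, was the member called lower in SAKI mice when its row was read alone. It was at 262, 138 and 384 CPM in WT 1, 2 and 3, and at 18.8, 18.7 and 16.1 CPM in SAKI 1, 2 and 3. The lowest WT mouse, WT 2, lay far above the highest SAKI mouse. The log2 fold change was -3.87 (SE 0.37), with an adjusted p of 0.0498 from edgeR, just under the threshold. The call was kept without WT 2, with an adjusted p of 0.000957 from edgeR. It was lost without any other library, with adjusted p-values from edgeR of 0.115 when WT 1 was left out, 0.0568 for WT 3, 0.339 for SAKI 1, 0.347 for SAKI 2 and 0.452 for SAKI 3, while the log2 fold change lay between -4.17 and -3.49 over all 6 fits.

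Akap2 cannot be read alone, because Pakap overlaps it. In the deposited tables Akap2 spans chr4:57717657-57896982 and Pakap chr4:57568179-57896984, both on the plus strand of GRCm38. In GENCODE vM21, Akap2 has 8163 exonic bases and Pakap 8456, of which 6891 are shared, 84.4% of Akap2 and 81.5% of Pakap. Of the rest, 1272 exonic bases belong to Akap2 alone. Pakap shares 1413 exonic bases with the gene Palm2, and 152 lie outside both Akap2 and Palm2. The gene lengths implied by the deposited FPKM, 11924 bases for Akap2 and 14671 for Pakap, differ from these, and which gene models served for counting was not stated in the sources used here. RefSeq holds both, with the neighbouring Palm2, as the gene Pakap.

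RefSeq (GRCm38.p6) places 5 start sites at this locus, and the 2 windows that lie within 150 bases of annotated GENCODE starts are shown because counts of the pair are divided between transcripts that begin there or elsewhere in the locus. The upstream window, chr4:57567998-57568297 on the plus strand, is near starts of Pakap and Palm2 transcripts and holds 1 match to TGACG on the minus strand (capitals, read as CGTCA). The downstream window, chr4:57844998-57845297 on the plus strand, is near a start of Akap2 transcripts and holds none, so it has no capitals.
Pakap upstream promoter: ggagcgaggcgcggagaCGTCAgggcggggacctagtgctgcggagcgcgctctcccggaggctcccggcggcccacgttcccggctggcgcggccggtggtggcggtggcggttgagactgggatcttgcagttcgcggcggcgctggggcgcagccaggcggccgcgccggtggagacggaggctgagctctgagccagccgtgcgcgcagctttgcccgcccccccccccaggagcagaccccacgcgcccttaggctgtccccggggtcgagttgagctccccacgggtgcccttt
Akap2 downstream promoter: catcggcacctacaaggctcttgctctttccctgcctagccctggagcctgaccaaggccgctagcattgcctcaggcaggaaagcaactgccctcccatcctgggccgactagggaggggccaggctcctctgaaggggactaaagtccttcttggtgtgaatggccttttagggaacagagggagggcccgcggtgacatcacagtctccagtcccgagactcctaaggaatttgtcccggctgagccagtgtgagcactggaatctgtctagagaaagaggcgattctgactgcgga

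Pakap was at 130, 30.0 and 242 CPM in WT 1, 2 and 3, and at 46.3, 61.2 and 47.8 CPM in SAKI 1, 2 and 3. WT 2 lay below all SAKI mice and the other WT mice above them. On the log2 scale the difference was -1.37 (SE 0.63, adjusted p 0.297 from edgeR), and without WT 2 the adjusted p was 0.0118. The counts of Akap2 and Pakap added up to 392, 168 and 625 CPM in WT mice and to 65.2, 79.9 and 63.9 CPM in SAKI mice, without overlap. The sum differed by -2.50 on the log2 scale (SE 0.44). Its adjusted p was 0.148 from edgeR, which missed the threshold, and 2.27e-07 from DESeq2. Without WT 2 it was -2.87 (SE 0.22) with an adjusted p of 0.00241 from edgeR. The exact two-sided permutation test over mice gave p = 0.1, the smallest possible with 3 against 3.

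**Figure D4:**
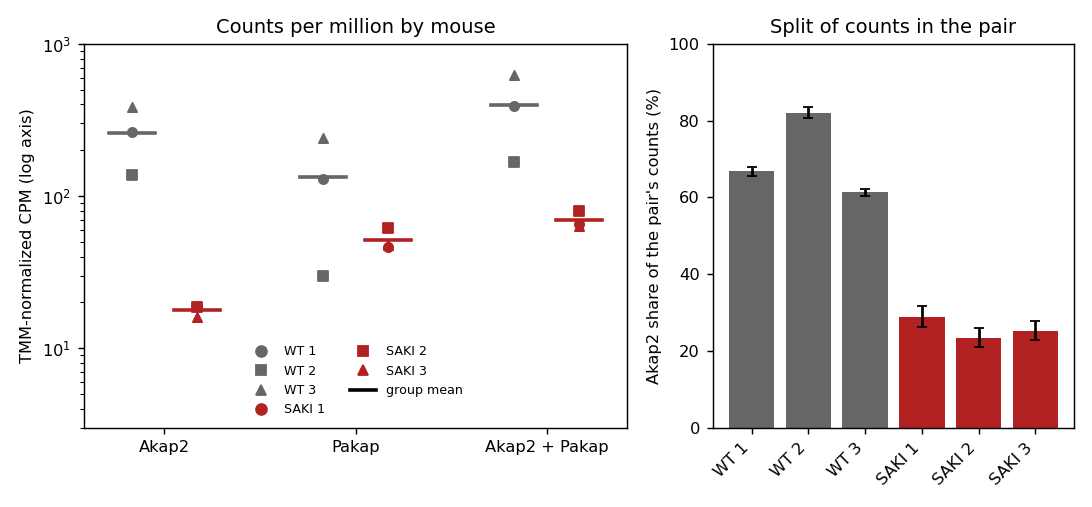
Left, TMM-normalized CPM (log axis) of Akap2, Pakap and their sum in each WT (grey) and SAKI (red) mouse, with lines at group means; right, percentage of the pair's counts assigned to Akap2, with exact 95% binomial intervals that cover counting error only. Akap2 held 61.3% to 82.1% of the counts in WT mice and 23.4% to 28.9% in SAKI mice.

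The split of counts inside the pair also separated the groups. Akap2 took 66.9% of the pair's 6390 counts in WT 1, with an exact (Clopper-Pearson) 95% interval of 65.7% to 68.0%. In WT 2 it took 82.1% of 2591 (80.6% to 83.6%) and in WT 3 61.3% of 9552 (60.3% to 62.3%). In SAKI 1, 2 and 3 it took 28.9% of 1000, 23.4% of 1236 and 25.2% of 1236, with intervals that together run from 21.0% to 31.8%. The means were 70.1% ± 10.8 and 25.8% ± 2.81 (SD, n = 3 each), and the exact two-sided permutation p was 0.1, again the smallest possible. Per length, in FPKM, the means were 74.1% ± 9.74 and 30.0% ± 3.07. Of the 4 permutation tests of single values, each gave 0.1, also after Benjamini-Hochberg adjustment.

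Palm2, which shares 1413 exonic bases with Pakap and 0 with Akap2, was at 1.66, 1.17 and 3.27 CPM in WT mice and at 2.02, 2.00 and 1.60 CPM in SAKI mice, with overlap (log2 fold change -0.12). Adding Palm2 to the pair left the log2 fold change at -2.47. Immediate early genes, which respond to acute stimuli and tissue handling, summed to 549, 491 and 1051 CPM in WT 1, 2 and 3 and to 342 to 366 CPM in SAKI mice (14 of 14 below 0, none at 0 in every library). WT 3 was highest and WT 2 lowest of the WT mice in this sum, as in Akap2 and Pakap, but in the mean log2 CPM of the same genes WT 1 was lowest, at 4.06, with WT 2 at 4.45 and WT 3 at 5.19. The part of handling in these values was not tested.

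Akap12 showed 1 library apart. WT 3 was at 550 CPM, while WT 1 and WT 2 were at 114 and 120 CPM and SAKI mice at 115, 115 and 130 CPM. The log2 fold change was -1.13 (SE 0.60, adjusted p 0.353 from edgeR), and without WT 3 it was 0.03. The summed AKAP FPKM, 203 ± 48.2 in WT mice and 167 ± 4.39 in SAKI mice (SD, n = 3 each), also rested on WT 3, at 256, with WT 1 and WT 2 at 189 and 162.

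The remaining anchors had log2 fold changes between -0.26 and 0.44. Akap9, a large scaffold of centrosome and Golgi, was at 62.4, 82.0 and 62.1 CPM in WT mice and at 90.9, 98.9 and 90.1 CPM in SAKI mice, without overlap (log2 fold change 0.44, SE 0.14, adjusted p 0.203 from edgeR, 0.0140 without WT 2). Akap8 was at 153, 146 and 144 CPM in WT mice and at 166, 172 and 169 CPM in SAKI mice, also without overlap (log2 fold change 0.20, SE 0.09). Akap13 had a log2 fold change of 0.18 and Akap10, an anchor with domains of the regulators of G protein signaling, one of 0.25, again without overlap. Adjusted p-values of Akap8, Akap10 and Akap13 were 0.306 to 0.378 in edgeR. Akap1, Akap5 (at the plasma membrane), Akap6 (at the nuclear envelope of muscle), Akap7 (at ion channels), Akap8l, Akap11 and Akap17b overlapped between the groups by CPM, with log2 fold changes from -0.26 to 0.42.

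The genes around the members, from the receptors to the substrates of PKA, were described from a list of 52, of which 50 were tested. None passed an adjusted p under 0.05 in edgeR, and 2 were higher (Rapgef4 and Ep300) and 10 lower at an unadjusted p under 0.05, which is 4% and 20% of the 50. DESeq2 called 3 lower and 0 higher, namely Gnai1, Popdc2 and Abhd5. Without WT 2, edgeR called 5 lower (Gnai1, Popdc2, Creb3l2, Abhd5 and Nr4a3) and 0 higher. For Nr4a3, WT 2 at 6.61 CPM lay below every SAKI mouse (7.24 to 8.08 CPM). With all mice the adjusted p of Nr4a3 from edgeR was 0.278. The median log2 fold change of the 50 was -0.15, with 38 (76%) below 0, beside 50.4% of all genes. In 3 (6%) the SAKI mice lay above all WT mice and in 9 (18%) below. Beside these stand the shares of all genes: 8.36% higher and 9.99% lower at an unadjusted p under 0.05, 2.01% and 2.69% in DESeq2, 7.41% and 9.14% without WT 2, and 13% above and 12.4% below without overlap.

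On the input side, Adrb3, the beta-adrenergic receptor of adipocytes, was at 218 ± 90.2 CPM in WT mice and 200.2 ± 63.3 CPM in SAKI mice (SD, n = 3 each), with overlap. The receptors Adrb1 and Tshr lay below in SAKI mice without overlap (adjusted p 0.250 and 0.264 from edgeR). Gnas, the stimulatory G protein subunit, was at 498 ± 14.4 and 456 ± 17.7 CPM without overlap (log2 fold change -0.13, adjusted p 0.531 from edgeR). Gnai1, an inhibitory subunit, was at 210 ± 18.1 and 152 ± 5.47 CPM without overlap (log2 fold change -0.47, adjusted p 0.166 from edgeR). Popdc2, a membrane protein that binds cAMP, was at 9.23 ± 0.64 and 4.85 ± 1.10 CPM without overlap (log2 fold change -0.93, adjusted p 0.163 from edgeR). Creb3l2, a relative of CREB, differed by -0.60 on the log2 scale, also without overlap (adjusted p 0.201 from edgeR).

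On the output side, 11 of the 13 tested PKA substrates and cAMP-induced genes had log2 fold changes below 0, with a median of -0.47. Of all genes tested, 50.4% were below 0. The 2 above 0 were Per1, a clock gene that cAMP can induce, at 0.21 with every SAKI mouse above every WT mouse, and Ppargc1a, a coactivator of thermogenic genes, at 0.10 with overlap. Pck1, an enzyme of glyceride synthesis in fat, was at -0.01. Lipe, the hormone-sensitive lipase that PKA phosphorylates, was at 1475 ± 243 CPM in WT mice and 1100.5 ± 16.4 CPM in SAKI mice without overlap (log2 fold change -0.42, adjusted p 0.239 from edgeR). Plin1, the lipid droplet coat that PKA also phosphorylates, had a log2 fold change of -0.69, Abhd5, the coactivator it releases, one of -0.68, and the lipase Pnpla2 one of -0.36. Abhd5 did not overlap between the groups, while Plin1 and Pnpla2 did, with WT 1 inside the SAKI range. Nr4a1, a nuclear receptor induced early by cAMP, had a log2 fold change of -0.70, again with WT 1 inside the SAKI range. It is also among the immediate early genes summed above. Dio2, a thyroid hormone activating enzyme that cAMP induces, was at 0.859, 3.18 and 8.45 CPM in WT 1, 2 and 3 and at 0.905 to 1.24 CPM in SAKI mice, so that WT 1 lay below every SAKI mouse (log2 fold change -2.01, adjusted p 0.241 from edgeR). Of the 16 adipocyte markers, which include Plin1 and Pck1, 14 had log2 fold changes below 0. The part of adipocyte RNA in these values was not tested.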

How the data were processed

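RNA-seq of IngWAT from 3 WT and 3 SAKI mice was analysed. The authors deposited raw counts of reads per gene. They also deposited FPKM values, which are those counts scaled: the length implied by count and FPKM agreed within 1% across libraries for 13107 of 13107 genes with over 20 counts. Bowtie2 2.2.6, HISAT2 2.0.4, StringTie 1.3.0 and the build GRCm38 are listed in the processing notes of the submitters. How reads were counted, with which annotation and strand setting, is not given in the sources used here, and overlapping genes cannot be told apart. RNA was extracted with the MJzol kit per the labels and with Trizol per the methods, and poly(A) libraries were made.

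The genotypes were compared by edgeR 4.0.16 under R 4.3.3 (filterByExpr with a minimum count of 10 and total of 15, TMM factors, genotype only, quasi-likelihood test, Benjamini-Hochberg over all genes tested). The printed SE is the absolute log2 fold change divided by the root of F. For Akap2 with Pakap, their rows were replaced by the sum. FPKM was used to compare levels between genes. The steps were tested on simulated data. Totals of 15354161 to 18787036 counts and a common biological coefficient of variation of 23.3% set the precision.

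The members and lists were chosen with earlier results of these data known. Named were Slc35d3, Akap2, Pakap, Palm2, members past the threshold, the up to 4 members per role of highest FPKM and the 4 of smallest p, the 8 pathway genes of smallest p, and Adrb3, Gnas, Lipe and Plin1. Other members were given as values so that each is accounted for. The other pathway genes named (Pnpla2, Rapgef4, Ep300, Nr4a3, Per1, Ppargc1a, Pck1, Ucp1, Gadd45g, Adrb1, Tshr) were chosen after their values were seen. Alternatives were RLE and upper-quartile factors, DESeq2 1.42.0, limma-voom (limma 3.58.1), no filter, a mean of at least 5 CPM, a replicate block, each library left out, and limma on log2(FPKM + 1) or log2(FPKM + 0.1) for genes with at least 1 FPKM in 3 libraries, or without that filter. GENCODE vM21 was used for exons and RefSeq for promoters.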

Additional observations from a re-analysis of the deposited data

How the results depend on the processing

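Over all alternatives, the named genes kept direction and side of the threshold in 689 comparisons with the reported value, passed the threshold newly in 20, lost it in 7 (all Akap2) and changed sign in 16. Members called at an adjusted p under 0.05 numbered 1 higher and 4 lower with DESeq2, and 0 lower with the replicate block and with FPKM without a filter. When each library was left out, they ranged from 0 to 4 higher and from 0 to 7 lower, and the highest counts of both came without WT 2. Members at an unadjusted p under 0.05 numbered 4 higher with upper-quartile factors, and without single libraries 1 to 8 higher and 4 to 10 lower. Without WT 2 these were 16% and 20% of members, beside 17% and 18.1% of all genes. Without WT 1 they were 4% and 20%, beside 8.09% and 7.70%. Without SAKI 1 they were 2% and 16%, beside 5.31% and 6.91%. For the other pathway genes, DESeq2 called 3 lower, and leaving out libraries gave 0 to 5 lower. At an unadjusted p under 0.05, 1 pathway gene was higher with DESeq2 and with FPKM at either pseudocount and 0 with the replicate block. Without single libraries 0 to 3 were higher and 3 to 13 lower. The 13 lower came without WT 1 (26%, beside 7.70% of all genes) and without WT 2 (25.5%, beside 18.1%). In these fits 6% and 1.96% were higher, beside 8.09% and 17% of all genes. Members without overlap numbered 8 below by FPKM (16%, beside 9.94% of all genes), and without single libraries 6 to 15 above and 5 to 12 below, with 15 above without WT 2 (30%, beside 26.3% of all genes). Fewer libraries make gaps between the groups more frequent among all genes too.

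The log2 fold change of Akap2 with Pakap passed the threshold with DESeq2 (-2.51), and Akap2 alone passed (-3.87). Without single libraries it ranged from -2.87 to -2.01. Akap2 lost its call with the replicate block (adjusted p 0.168 from edgeR) and with FPKM without a filter (adjusted p 0.114 from limma). The correlations of same-numbered deviations from group means were 0.036, 0.042 and 0.089, and those of different-numbered ones ran from -0.20 to 0.16. These values cannot decide whether replicate numbers pair the mice, because deviations from a mean of 3 mice are tied to each other. With the replicate block the pair differed by -2.33 on the log2 scale (adjusted p 0.302 from edgeR), and no member was called, so the block moved the count of lower members from 1 to 0.

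Signs turned in these cases, given as log2 fold changes. Palm2 was at 0.0011 with limma-voom. With each library left out in turn, Palm2 ranged from -0.39 to 0.40, Akap8l from -0.028 to 0.053, Akap12 from -1.49 to 0.033, Pde4dip from -0.15 to 0.57, Pde6d from -0.088 to 0.10, Pde12 from -0.31 to 0.13, Pde8a from -0.13 to 0.30, Pde7a from -0.015 to 0.35, Pde1b from -0.15 to 0.12 and Adrb3 from -0.41 to 0.22. The library that turned the sign was WT 3 for Palm2, Akap12 and Pde12, WT 1 for Pde8a, WT 2 for Pde7a, and SAKI 1 for Akap8l. It was WT 1 or SAKI 2 for Pde1b, WT 2 or SAKI 2 for Adrb3, WT 3 or SAKI 1 for Pde4dip, and WT 2, WT 3 or SAKI 1 for Pde6d. The causes were not tested.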
